A study of Mus musculus with 8 samples.

Results

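The genes of the islet blood vessels were examined in RNA from pancreatic islets of ob/ob and ob/+ mice. The set holds 33 genes, chosen by name as markers and regulators of the vessel wall: 22 of endothelial cells, the cells that line a vessel, and 11 of mural cells, the pericytes and smooth muscle cells that wrap it. All 33 were among the 17401 genes with a value. The groups were 4 libraries from islets of 12-week-old C57BL/6 mice with the genotype ob/ob and 4 from mice of the same strain and age with the genotype ob/+. The ob allele is a mutation of Lep, the leptin gene. Mice with both copies mutant lack leptin and overeat, grow obese and resist insulin. The controls were heterozygous, so they carried the allele too, and no wild-type group was sampled. Islets were freed with collagenase, purified on a density gradient and picked by hand. The labels do not say whether a library came from a single mouse or from pooled mice, and p-values here reflect only how far such libraries vary, some of which may be technical.

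Islets are among the most densely vascularised tissues of the body, and their capillaries are fenestrated, with thin pores that let hormones pass. Beta cells secrete VEGF-A, which acts on the endothelial receptors VEGFR1 (Flt1) and VEGFR2 (Kdr). A second ligand system tunes vessel stability: angiopoietin 1 activates the endothelial receptor TIE2 (Tek), and angiopoietin 2, released by endothelial cells, can oppose it. Endothelial cells recruit pericytes by secreting PDGF-B, which binds the receptor PDGFR-beta on mural cells.

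Values were taken as FPKM, fragments per kilobase of transcript scaled to library size, though their unit is not stated. On that reading, levels of different genes can be set side by side. The FPKM of a library summed to 820968 to 880570 in ob/+ and 920734 to 1004230 in ob/ob, and absolute depth is unknown. Insulin transcripts took 42.0% to 54.4% of the sum in ob/+ and 57.1% to 65.6% in ob/ob. Transcripts of acinar cells, the enzyme-making cells around islets, took 7.59% to 25.8% in ob/+ and 3.29% to 11.5% in ob/ob. Library ob/+ 4 held the most. If the values are scaled to library size, these fractions bear on the level of every other gene. The sums differ between libraries, so the values are not exact shares. Differences were tested with limma on log2(FPKM + 1) over the 11747 genes that reached 1 FPKM in 4 or more libraries, and a gene was called at a Benjamini-Hochberg adjusted p under 0.05. A log2 fold change below is on that scale, ob/ob against ob/+, and understates the change of low genes. A fold is the ratio of mean FPKM.

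The defining endothelial markers were present in every library, and none of the 20 tested endothelial genes was called lower in ob/ob. Angpt2 was the endothelial gene that passed, as higher. Of the mural genes the pericyte gene Rgs5 and the smooth muscle actin gene Acta2 rose, while the pericyte genes Pdgfrb, Cspg4, Notch3, Abcc9 and Mcam did not pass. In all, 30 of the 33 genes met the expression filter, 3 were called higher and 0 lower, and 5 more (Ptprb, Pdgfb, Myh11, Tagln and Mcam) had an unadjusted p under 0.05 without passing after adjustment. Over all 11747 genes tested, 18.8% were called, 8.21% as higher and 10.6% as lower. The share of members called, 10%, was thus below that of all genes. The median log2 fold change was -0.09 over the 20 endothelial genes tested and -0.01 over the 10 mural genes, where the median of all tested genes was -0.07. In bulk RNA, fewer cells of a type and less RNA per cell cannot be told apart.

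**Figure D1:**
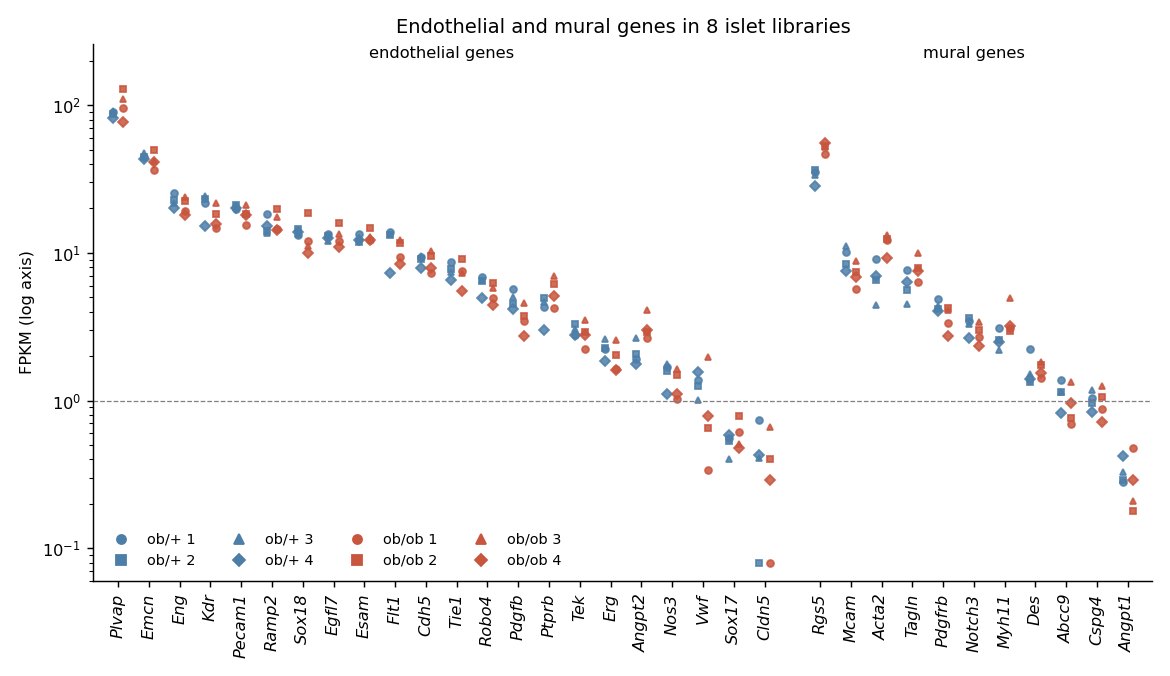
FPKM on a log axis for the 33 genes in each of the 8 libraries, ordered by mean level in ob/+ within endothelial and mural genes. Blue symbols are ob/+ and red symbols ob/ob, with a symbol shape per replicate number, and the dashed line is the 1 FPKM of the filter. Rgs5 and Acta2 are the genes whose red symbols all lie above the blue ones.

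**Figure D2:**
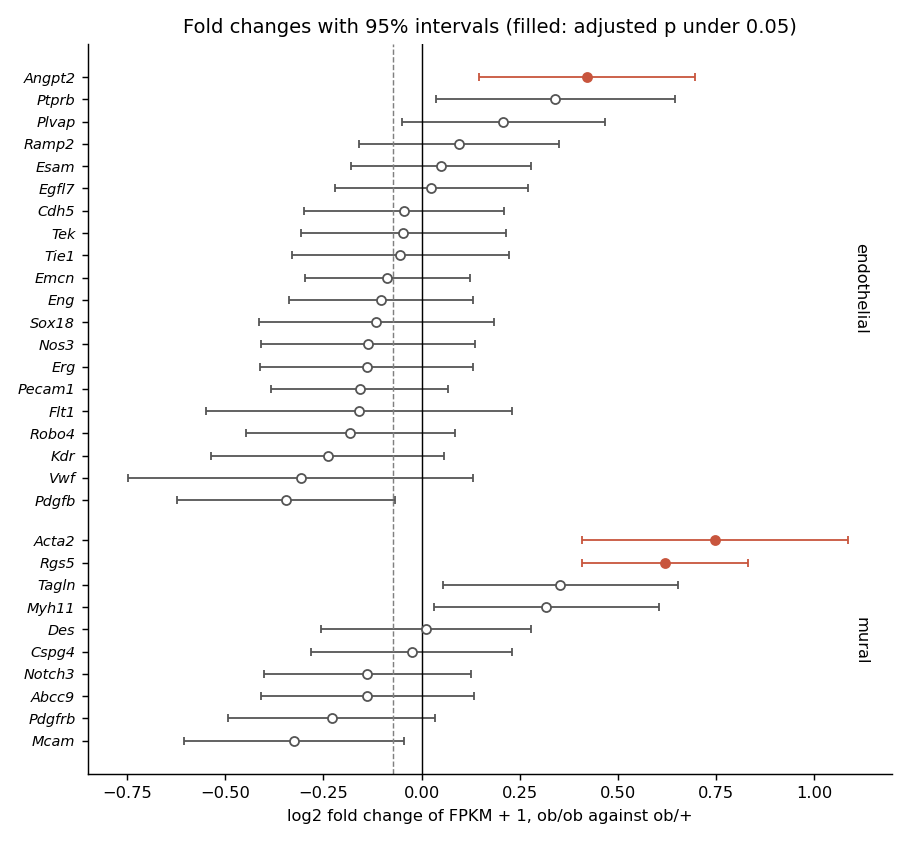
Log2 fold change of FPKM + 1, ob/ob against ob/+, with 95% intervals from limma for the 30 tested genes. Filled red points passed the adjusted threshold (Rgs5, Acta2 and Angpt2), the solid line is 0 and the dashed line is the median of all tested genes, -0.07.

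The order of the endothelial genes by level was led by Plvap, Emcn and Eng. Plvap, which forms the diaphragms of fenestrae, was the highest in ob/+ at 90.2, 87.3, 91.1 and 82.0 FPKM. In ob/ob it was at 96.3, 129, 111 and 76.5. The ob/ob libraries lay both above and below those of ob/+, and the log2 fold change of 0.21 (95% interval -0.05 to 0.47) did not pass the test (limma adjusted p = 0.265). Without ob/ob 4 it did, at 0.34 (limma adjusted p = 0.0319). The sialomucin endomucin (Emcn) came next, at 44.9 ± 1.72 FPKM in ob/+ and 42.4 ± 5.51 in ob/ob (SD, n = 4 each). It was followed by endoglin (Eng), a TGF-beta co-receptor, at 22.5 ± 2.31 and 20.9 ± 2.78.

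The adhesion molecule CD31 (Pecam1), the most used marker of endothelium, was at 19.7, 21.0, 20.4 and 20.2 FPKM in ob/+ and at 15.4, 18.3, 21.0 and 18.1 in ob/ob. The ob/+ libraries were close together and the ob/ob libraries spread around and below them. Its log2 fold change was -0.16 (95% interval -0.38 to 0.07). VE-cadherin (Cdh5), which holds endothelial cells to each other, was at 8.99 ± 0.724 FPKM in ob/+ and 8.74 ± 1.38 in ob/ob (SD, n = 4 each), with a 95% interval of the log2 fold change from -0.30 to 0.21. The libraries of the genotypes overlapped for both genes, and neither passed the test.

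Other endothelial surface and secreted genes did not pass either. The tight junction protein Esam, the secreted vessel organiser Egfl7 and Ramp2, the partner of the adrenomedullin receptor, had log2 fold changes of 0.05, 0.03 and 0.09. Robo4, a guidance receptor of endothelium, was at 6.22 ± 0.847 FPKM in ob/+ against 5.37 ± 0.824 in ob/ob (SD, n = 4 each; log2 fold change -0.18). It was called lower without ob/+ 4 (-0.27, limma adjusted p = 0.0434). Ramp2 shares 1103 bases of annotated exon with Vps25 on the same strand, so its value is uncertain. Eng shares 61 with Fpgs, Egfl7 shares 64 with Agpat2 and Nos3 shares 294 with Atg9b, each on the opposite strand, and the counting is not stated to use strand.

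Von Willebrand factor (Vwf), the clotting protein stored mainly in the endothelium of larger vessels, was low. It was at 1.38, 1.26, 1.01 and 1.55 FPKM in ob/+ and at 0.34, 0.65, 1.98 and 0.78 in ob/ob, where ob/ob 3 was the highest of the 8 libraries and the other ob/ob libraries were the lowest. Vwf met the filter through the ob/+ libraries, as 5 libraries reached 1 FPKM. It did not pass the test (log2 fold change -0.31, limma adjusted p = 0.328), and without ob/ob 3 its log2 fold change was -0.54 (limma adjusted p = 0.00524), in a fit where it met the filter through the ob/+ libraries alone. Claudin 5 (Cldn5), the claudin of tight brain capillaries, stayed under 1 FPKM in every library, from 0.08 to 0.74, and was not tested.

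The VEGF receptors did not pass the test. VEGFR2 (Kdr) was at 21.9, 23.0, 24.2 and 15.2 FPKM in ob/+ and at 14.8, 18.4, 21.7 and 15.6 in ob/ob. VEGFR1 (Flt1) was at 13.8, 13.3, 13.5 and 7.35 in ob/+ and at 9.37, 11.8, 12.2 and 8.37 in ob/ob. In both genes 3 of the ob/+ libraries lay above every ob/ob library and ob/+ 4, the library with the largest acinar share, lay at or near the bottom. With all libraries the log2 fold changes were -0.24 for Kdr (limma adjusted p = 0.266) and -0.16 for Flt1 (0.59). Without ob/+ 4 both were called lower, at -0.38 (limma adjusted p = 0.0118) and -0.36 (0.015), and the number of genes called among all tested rose from 2208 to 4832. With all 8 libraries and the acinar share as a covariate, Kdr was at -0.49 (limma adjusted p = 0.0188) and Flt1 at -0.50 (0.0374), both called lower. Dropping the 10 most abundant genes from the sum gave -0.12 (limma adjusted p = 0.69) and -0.05 (0.911).

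Of the 7 tested genes of the wider VEGF system 1 rose and 1 fell, where 18.8% of all tested genes were called. Their median log2 fold change was -0.24. Vegfb, a ligand of VEGFR1, was at 34.3, 33.3, 30.9 and 29.4 FPKM in ob/+ and at 19.9, 21.9, 18.3 and 14.2 in ob/ob. The groups did not overlap, and Vegfb fell by 0.77 on the log2 scale (limma adjusted p = 3.3e-05). Placental growth factor (Pgf), which also binds VEGFR1, was at 12.9, 14.0, 13.0 and 9.33 FPKM in ob/+ and at 16.8, 16.2, 21.0 and 16.6 in ob/ob. It rose by 0.49 (limma adjusted p = 0.00667). Vegfa, the main ligand of VEGFR2, was far more abundant than either, at 149, 159, 150 and 97.1 FPKM in ob/+ and 99.1, 108, 114 and 90.6 in ob/ob, and missed the threshold (log2 fold change -0.41, limma adjusted p = 0.0586). The ratio of Vegfa to Kdr within a library overlapped between the genotypes, at 6.21 to 6.92 in ob/+ and 5.27 to 6.70 in ob/ob.

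Among the genes of angiopoietin signalling the antagonist ligand rose and the receptors did not pass. Angpt2 lies on chromosome 8 (GRCm38, 18690263 to 18741562, minus strand) within the span of Mcph1 on the opposite strand, with no shared exon base. Angpt2 was at 1.90, 2.06, 2.66 and 1.77 FPKM in ob/+ and at 2.64, 2.90, 4.08 and 3.02 in ob/ob. Only the lowest ob/ob library, at 2.64, lay just under the highest ob/+ library, at 2.66. Its mean was 1.51-fold higher in ob/ob, and the log2 fold change was 0.42 ± 0.13 (SE, limma adjusted p = 0.0277). That call ended without ob/+ 1 (limma adjusted p = 0.0987), ob/+ 2 (0.0536), ob/ob 3 (0.105) or ob/ob 4 (0.0589), and its value stayed between 0.32 and 0.51 when single libraries were left out. Mcph1 was at 1.42 ± 0.280 FPKM in ob/+ and 1.38 ± 0.143 in ob/ob (SD, n = 4 each).

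TIE2 (Tek), the receptor of both angiopoietins, was at 2.76, 3.31, 3.03 and 2.77 FPKM in ob/+ and at 2.24, 2.91, 3.53 and 2.77 in ob/ob. Its groups overlapped throughout (log2 fold change -0.05, 95% interval -0.31 to 0.21). Within a library the ratio of Angpt2 to Tek was 0.688, 0.622, 0.878 and 0.639 in ob/+ and 1.18, 0.997, 1.16 and 1.09 in ob/ob. This ratio does not depend on the scaling of a library, and the groups did not overlap. It was picked after its values were seen and was not tested. The orphan receptor Tie1, partner of TIE2, had a log2 fold change of -0.05. The agonist Angpt1, listed with the mural genes that are known to secrete it, was between 0.18 and 0.48 FPKM in the 8 libraries and was not tested.

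The phosphatase VE-PTP (Ptprb), which dampens TIE2, was at 4.29, 4.94, 4.66 and 2.99 FPKM in ob/+ and at 4.23, 6.16, 7.0 and 5.10 in ob/ob. It was not called with all libraries (log2 fold change 0.34, limma adjusted p = 0.113) but passed as higher with median centring (0.41, limma adjusted p = 0.00975), upper-quartile scaling (0.39, 0.0191) and the sum without the 10 most abundant genes (0.44, 0.0297). It also passed with the replicate number as a block (0.34, limma adjusted p = 0.0498) and without both ob/+ 4 and ob/ob 1 (0.33, 0.032). It dropped to 0.09 once the acinar genes were taken out of the sum (limma adjusted p = 0.543) and to 0.05 with the acinar share as a covariate (0.837). Without ob/+ 4 it was 0.22 (limma adjusted p = 0.171). Its ratio to Pecam1 was 0.148 to 0.235 in ob/+ and 0.276 to 0.336 in ob/ob, without overlap. This ratio was picked after its values were seen and was not tested.

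Endothelial transcription factors and nitric oxide synthase did not pass. Sox18, a SOXF factor of endothelial identity, was the most abundant at 13.8 ± 0.593 FPKM in ob/+ and 13.0 ± 3.91 in ob/ob (SD, n = 4 each), with ob/ob 2 at 18.7 and ob/ob 4 at 9.94. The ETS factor Erg was at 2.25 ± 0.311 and 1.96 ± 0.454 FPKM in ob/+ and ob/ob (SD, n = 4 each; log2 fold change -0.14). Sox17, another SOXF factor, stayed under 1 FPKM, from 0.40 to 0.78, and was not tested. Endothelial nitric oxide synthase (Nos3), the source of the vasodilator nitric oxide, was at 1.54 ± 0.305 FPKM in ob/+ and 1.32 ± 0.302 in ob/ob (log2 fold change -0.14).

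The ligand and receptor of pericyte recruitment both had negative fold changes that missed the threshold. Pdgfb was at 5.68, 4.49, 5.0 and 4.17 FPKM in ob/+ and at 3.45, 3.71, 4.58 and 2.73 in ob/ob. A single ob/ob library, ob/ob 3, lay within the range of ob/+. The log2 fold change was -0.35 (limma adjusted p = 0.0749). It was called lower without ob/+ 4 (-0.40, limma adjusted p = 0.0157) or without ob/ob 3 (-0.44, 0.027), and also with the replicate number as a block (-0.35, 0.0413) and upper-quartile scaling (-0.30, 0.0437). Dropping the 10 most abundant genes from the sum gave -0.25 (limma adjusted p = 0.311), and taking the acinar genes out gave -0.59 (0.000749). Pdgfrb, the receptor on pericytes, was at 4.84, 4.17, 4.37 and 4.03 FPKM in ob/+ and at 3.36, 4.21, 4.08 and 2.74 in ob/ob (log2 fold change -0.23, limma adjusted p = 0.23). The ratio of Pdgfb to Pdgfrb was 1.03 to 1.17 in ob/+ and 0.881 to 1.12 in ob/ob, with overlap.

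Rgs5, a regulator of G protein signalling used as a marker of pericytes, was the most abundant mural gene. It lies on chromosome 1 (GRCm38, 169655501 to 169695813, plus strand) and overlaps no other listed gene. It was at 35.2, 36.7, 33.6 and 28.5 FPKM in ob/+ and at 47.1, 53.2, 51.8 and 55.4 in ob/ob. All ob/ob libraries lay above all ob/+ libraries, as in 9.75% of all tested genes (20.5% did not overlap in either direction, 10.7% as lower). Rgs5 rose 1.55-fold (log2 fold change 0.62 ± 0.10 SE, limma adjusted p = 7.59e-05), and was called higher in 19 of 19 alternative settings, with values from 0.32 to 0.74.

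Alpha smooth muscle actin (Acta2), the contractile actin of smooth muscle and of contractile pericytes, lies on chromosome 19 (GRCm38, 34241090 to 34255590, minus strand). It was at 9.06, 6.60, 4.41 and 7.02 FPKM in ob/+ and at 12.3, 12.5, 13.3 and 9.30 in ob/ob. The groups did not overlap, although ob/ob 4 was only just above ob/+ 1. Acta2 rose 1.75-fold (log2 fold change 0.75 ± 0.16 SE, limma adjusted p = 0.00267). It was called in 18 of 19 alternative settings and lost the call without both ob/+ 4 and ob/ob 1, which held the largest acinar share within each genotype (0.76, limma adjusted p = 0.0839).

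Other contractile genes had fold changes of the same sign that missed the threshold. Transgelin (Tagln), an actin-binding protein of smooth muscle, was at 7.71, 5.62, 4.49 and 6.33 FPKM in ob/+ and at 6.40, 7.86, 9.98 and 7.58 in ob/ob (log2 fold change 0.35, limma adjusted p = 0.0942). Smooth muscle myosin (Myh11) was at 3.12, 2.57, 2.21 and 2.50 in ob/+ and at 3.08, 2.94, 4.94 and 3.18 in ob/ob (0.32, limma adjusted p = 0.115). In both genes 2 of the 4 ob/ob libraries lay above every ob/+ library, ob/ob 3 was the highest and ob/+ 1 overlapped the rest. Tagln was called higher without ob/+ 1 (0.46, limma adjusted p = 0.0461) and after the 10 most abundant genes were dropped from the library sum (0.46, 0.0211). Myh11 was called higher with median centring (0.39, limma adjusted p = 0.0366), upper-quartile scaling (0.36, 0.0469) and the 10 most abundant genes left out (0.41, 0.0402). Once the acinar genes were taken out of the sum, Tagln was at 0.09 (limma adjusted p = 0.598) and Myh11 at 0.09 (0.562). Without ob/ob 3 Myh11 was at 0.18 (limma adjusted p = 0.379). Desmin (Des), the muscle intermediate filament also found in pericytes, was at 1.62 ± 0.419 FPKM in ob/+ and 1.63 ± 0.183 in ob/ob (SD, n = 4 each; log2 fold change 0.01). Tagln shares 108 bases of annotated exon with Pcsk7 on the opposite strand, which was at 4.24 ± 0.643 and 4.08 ± 0.226 FPKM (SD, n = 4 each).

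**Figure D3:**
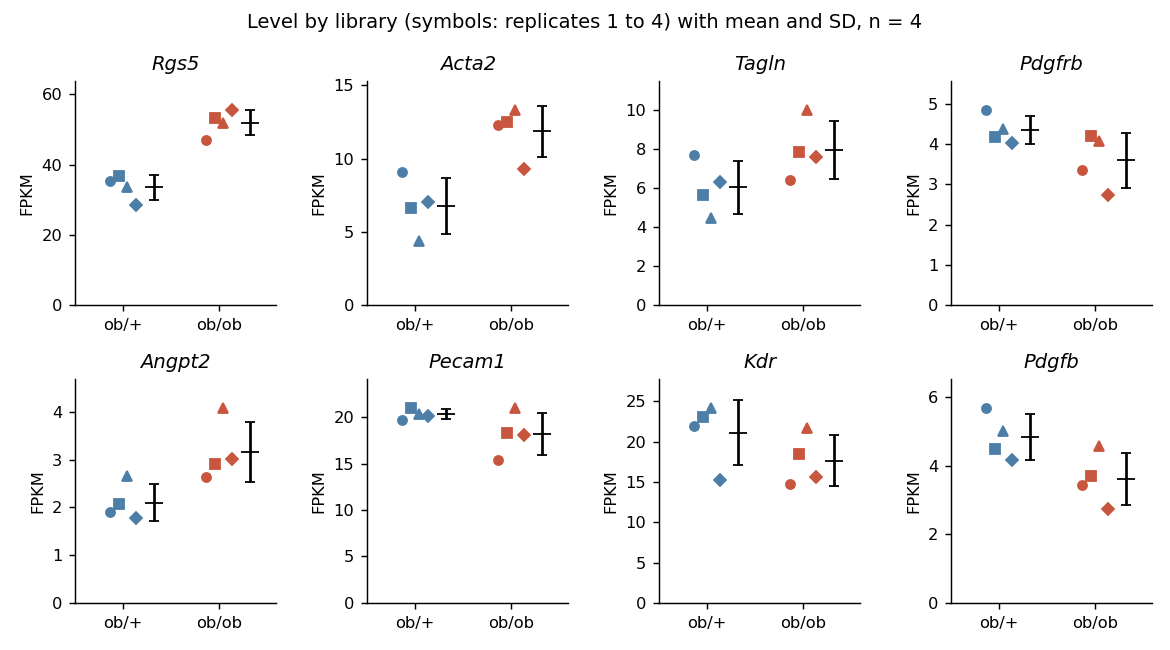
FPKM of 8 genes in each library, with symbols for replicates 1 to 4 and bars for the mean and SD of each genotype (n = 4). The ob/ob symbols lie above all ob/+ symbols for Rgs5 and Acta2, touch them for Angpt2, and overlap them for Tagln, Pdgfrb, Pecam1, Kdr and Pdgfb.

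The other pericyte genes of the set did not pass the test. Mcam (CD146), an adhesion molecule of mural and endothelial cells, was at 10.2, 8.44, 11.1 and 7.55 FPKM in ob/+ and at 5.73, 7.44, 8.82 and 6.92 in ob/ob. The log2 fold change was -0.33 (limma adjusted p = 0.0994), and it was called lower without ob/+ 4 (-0.41, limma adjusted p = 0.0138) or without ob/ob 3 (-0.42, 0.0441), and with the acinar share as a covariate (-0.47, 0.0335). Dropping the 10 most abundant genes from the sum gave -0.22 (limma adjusted p = 0.41). Notch3, the Notch receptor of mural cells, was at 3.26 ± 0.438 FPKM in ob/+ and 2.88 ± 0.454 in ob/ob (SD, n = 4 each; log2 fold change -0.14). The proteoglycan NG2 (Cspg4) and the potassium channel subunit SUR2 (Abcc9) were near 1 FPKM, with 4 libraries each at or above it. Their log2 fold changes were -0.02 and -0.14.

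Sequence upstream of the start was available for 17 of the 33 genes (10 endothelial, 7 mural; 21 windows of 250 bases, RefSeq, GRCm38.p6). The window of Rgs5, the mural gene with the most stable call, is shown beside that of Tek, an endothelial gene that did not pass the test. Each is written 5′ to 3′ on the strand of the gene. Capitals mark CAGGAA or its reverse complement TTCCTG, letters of the core bound by ETS factors such as ERG.
Rgs5, chr1:169655251-169655500, plus strand: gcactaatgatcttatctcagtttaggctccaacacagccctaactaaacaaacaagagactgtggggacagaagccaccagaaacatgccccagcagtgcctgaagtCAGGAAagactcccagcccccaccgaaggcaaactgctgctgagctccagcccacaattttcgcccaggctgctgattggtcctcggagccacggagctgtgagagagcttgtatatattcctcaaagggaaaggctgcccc
Tek, chr4:94739039-94739288, plus strand: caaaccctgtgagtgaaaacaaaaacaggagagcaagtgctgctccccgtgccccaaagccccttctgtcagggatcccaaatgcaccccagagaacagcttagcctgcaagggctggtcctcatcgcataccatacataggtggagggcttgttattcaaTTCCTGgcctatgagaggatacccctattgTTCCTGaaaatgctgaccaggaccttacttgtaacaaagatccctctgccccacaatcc

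Rgs5 held these letters once, at 142 bases before the start, and Tek at 89 and 59. The CArG box, the motif of serum response factor, was searched by name with at most 1 base departing from it, and reads the same on both strands. The Acta2 window held 2, whose first bases were 84 and 34 bases before the RefSeq start at 34255373. That start lies inside the GENCODE gene span given for Acta2, which takes in 217 of the 250 bases and both boxes, so by GENCODE they are not upstream. The Rgs5 window held none under this rule. CAGGAA on either strand was in 11 of the 21 member windows (7 of 14 endothelial, 4 of 7 mural), and in 25.7% of all 32851 windows of that length. At least 1 such CArG box was in 6 of the 21 (4 of 14 endothelial, 2 of 7 mural) and in 18.6% of all windows. Acta2 and Cspg4 were the members with 2, which 2.96% of all windows had. No member window held an exact CArG box, which 1.47% of all windows did. Letters in a window are a description and show no binding.

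The mural genes were also summed and set against the endothelial sum of the same library. The summed level of the 22 endothelial genes was 320, 310, 315 and 278 FPKM in ob/+ and 278, 365, 336 and 261 in ob/ob, with overlap. That of the 11 mural genes was 78.6, 71.4, 67.6 and 62.0 in ob/+ and 84.1, 94.9, 101 and 91.0 in ob/ob, without overlap. The ratio of the mural to the endothelial sum was 0.215 to 0.245 in ob/+ and 0.260 to 0.348 in ob/ob. Rgs5 made up most of that difference: with it left out, the ratio was 0.108 to 0.135 in ob/+ and 0.114 to 0.146 in ob/ob, and the groups overlapped.

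Ratios of single genes within a library, which no scaling of libraries can alter, separated the genotypes for Rgs5 and Acta2. Rgs5 to Pecam1 was 1.41 to 1.79 in ob/+ and 2.47 to 3.07 in ob/ob, and Rgs5 to Pdgfrb was 7.06 to 8.79 and 12.6 to 20.2. Acta2 to Pecam1 was 0.216 to 0.460 in ob/+ and 0.513 to 0.801 in ob/ob. Pdgfrb to Pecam1, a pericyte receptor against an endothelial marker, overlapped at 0.199 to 0.246 and 0.151 to 0.230. The separated ratios were picked after their values were seen and are given without a test.

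**Figure D4:**
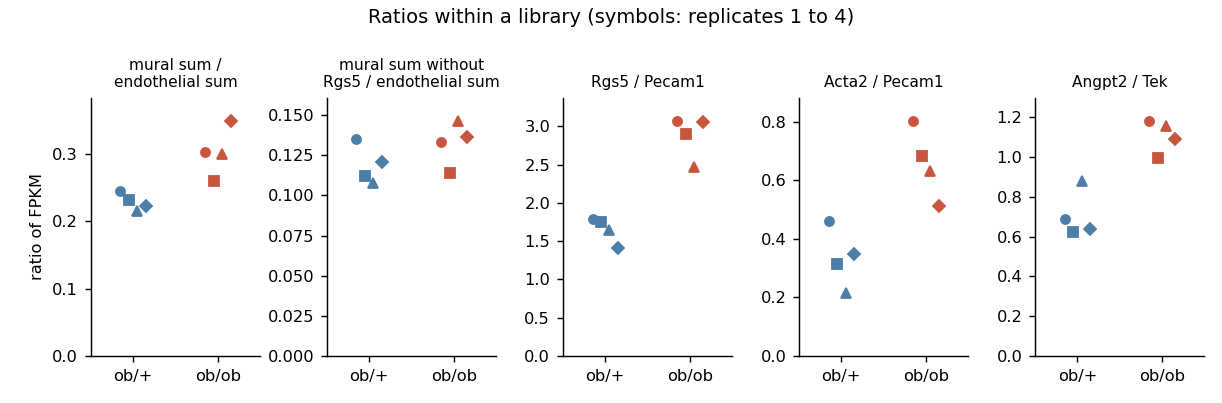
Ratios of FPKM within each library, from 0, for ob/+ (blue) and ob/ob (red) with a symbol per replicate number. The genotypes separate for the mural to endothelial sum, Rgs5 to Pecam1, Acta2 to Pecam1 and Angpt2 to Tek, and overlap once Rgs5 is left out of the mural sum.

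The direction of the small fold changes depended on the scaling. Of all calls 43.7% were higher with the deposited values, 66.9% once the 10 most abundant genes were dropped from the library sum and 6.41% once the acinar genes were. The tested genes as a whole had a median log2 fold change of -0.07, 0.03 and -0.33 in these fits. Leaving genes out also made the remaining sums equal between libraries, while the sums of the deposited values were unequal. No fit made the full sums equal, so the part of the left-out genes in these shifts was not tested. With the acinar genes left out, 17 members were called lower, Pecam1 (-0.45), Kdr (-0.53) and Emcn (-0.39) among them, and Rgs5 (0.32) and Acta2 (0.48) were higher. Relative to the median of all tested genes in the same fit, Rgs5 lay 0.65 to 0.71 above it over 5 scalings, Acta2 0.81 to 0.83, Angpt2 0.48 to 0.53 and Ptprb 0.41 to 0.42. Pecam1 lay 0.07 to 0.12 below it.

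Single libraries stood at the ends of their genotype for many members. Library ob/+ 4 had the lowest ob/+ value in 19 of the 33 genes. In ob/ob, ob/ob 3 had the highest value in 21 genes, and ob/ob 4 and ob/ob 1 the lowest in 16 and 15. The coefficient of variation over the 30 tested members had a median of 13.7% in ob/+ and 18.1% in ob/ob. The acinar share was 25.8% of summed FPKM in ob/+ 4 and 11.5%, 3.29%, 6.39% and 6.48% in ob/ob 1 to 4. Its part in this pattern was not tested beyond the fits given here.

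Of 19 tested endothelial genes outside the 33, 2 rose, 1 fell and 16 did not pass, with a median log2 fold change of -0.05. Among all tested genes 8.21% were called higher and 10.6% lower. Gpihbp1, which anchors lipoprotein lipase to capillaries, was at 7.39, 6.67, 7.83 and 8.37 FPKM in ob/+ and at 10.4, 11.4, 12.4 and 12.6 in ob/ob (log2 fold change 0.57, limma adjusted p = 0.000895). The lectin-like surface protein Clec14a was at 3.22, 3.06, 3.13 and 3.38 in ob/+ and at 4.03, 5.63, 6.12 and 5.40 in ob/ob (0.57, limma adjusted p = 0.0018). The groups did not overlap for either gene. The tetraspanin Tspan18 fell by 0.76 (limma adjusted p = 6e-05).

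Of 15 tested mural genes outside the 33, 3 rose, 2 fell and 10 did not pass (median log2 fold change 0.07). Among all tested genes 8.21% were called higher and 10.6% lower. The aminopeptidase Anpep (CD13), which pericytes share with several epithelia and myeloid cells, was at 59.4, 50.7, 54.4 and 42.7 FPKM in ob/+ and at 117, 108, 105 and 79.2 in ob/ob (0.96, limma adjusted p = 4.68e-06). The pericyte gene Higd1b was at 1.38 ± 0.415 FPKM in ob/+ and 2.19 ± 0.130 in ob/ob (SD, n = 4 each; 0.44, limma adjusted p = 0.0196), and the smooth muscle light chain gene Myl9 at 7.24 ± 1.24 and 9.75 ± 1.03 (0.39, limma adjusted p = 0.0323). Heyl, a Notch target of mural cells, fell by 0.67 (limma adjusted p = 0.000384), and vitronectin (Vtn), a secreted adhesion protein, fell by 0.72 (0.00189). Heyl met the filter through the ob/+ libraries alone, so it had to differ and adds no support to the count. Higd1b kept its call in 13 of 19 alternative settings, Myl9 in 11 and Vtn in 16.

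Notch and other vascular signalling genes held calls in both directions, 2 higher and 2 lower of 20 tested. That share, 20%, was close to the 18.8% called among all tested genes. The Notch ligand Dll1 was at 1.93, 1.83, 1.95 and 1.52 FPKM in ob/+ and at 0.52, 0.62, 0.77 and 0.63 in ob/ob (log2 fold change -0.78, limma adjusted p = 2.98e-05). Dll1 met the filter through the ob/+ libraries alone, so it had to differ and adds no support to these counts. Jag2 fell too (-0.52, limma adjusted p = 0.0267), with its call kept in 12 of 19 alternative settings. The Notch target Hey1 (0.81, limma adjusted p = 5.23e-05) and thrombospondin 1 (Thbs1), an inhibitor of angiogenesis, rose. Thbs1 was at 4.90, 7.39, 7.50 and 3.12 FPKM in ob/+ and at 13.0, 13.7, 16.5 and 12.8 in ob/ob (1.21, limma adjusted p = 0.00227). Among 12 tested genes of the basement membrane, the sheet that endothelium rests on, 16.7% were called, below the 18.8% of all tested genes. Lama5 rose (0.61, limma adjusted p = 0.00325) and perlecan (Hspg2) fell (-0.46, 0.023, call kept in 12 of 19 alternative settings). The median of the list was -0.25.

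The tested genes of fibroblasts and stellate cells, which share the stroma, had lower values in ob/ob. Of 10 tested fibroblast and stellate genes 8 fell and none rose, where 10.6% of all tested genes were called lower. The groups did not overlap for 10 of 10, all lower, against 10.7% of all tested genes. Among the 8, Dpt and Fbln1 met the filter through the ob/+ libraries alone, so they had to differ and add no support to these counts. Fbln1, Col1a2, Dpt and Col1a1 had the smallest p. Their summed level over 15 genes was 49.4 to 69.6 FPKM in ob/+ and 13.0 to 38.0 in ob/ob. Col1a1, the main collagen of fibroblasts, was at 6.03, 4.86, 4.58 and 7.73 FPKM in ob/+ and at 0.89, 1.36, 2.74 and 1.18 in ob/ob (log2 fold change -1.45, limma adjusted p = 0.000297). Of the fibroblast genes, Pdgfra was at 0.405 and 0.125 FPKM (ob/+ and ob/ob means), and Lrat was at 0 in some libraries. The rise of Acta2, which activated stellate cells also make, was thus seen beside lower fibroblast genes, and their part in the mural values was not tested.

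Haemoglobin transcripts were higher in ob/ob. Of 4 tested red blood cell genes 3 rose, where 8.21% of all tested genes were called higher. The sum of the 6 listed genes was 114 to 205 FPKM in ob/+ and 319 to 1305 in ob/ob, with ob/ob 3 at the top. Beta globin Hbb-bs was at 49.7, 33.7, 55.0 and 62.8 FPKM in ob/+ and at 104, 157, 401 and 166 in ob/ob (log2 fold change 1.87, limma adjusted p = 0.0321). The globin genes are close copies whose reads may be split between them, which leaves each single value uncertain. Their calls are thus not separate results. Slc4a1 was at 0 in some libraries. The calls of the globin genes held in 12 of 19 alternative settings each.

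Of 10 tested macrophage genes 0 passed the limma test (2, Csf1r and Cd14, were at an unadjusted p under 0.05), where 18.8% of all tested genes were called. The sum of the 12 listed macrophage genes overlapped at 83.5 to 121 FPKM in ob/+ and 78.5 to 131 in ob/ob. Of 3 tested lymphatic genes 0 passed (2, Lyve1 and Prox1, were at an unadjusted p under 0.05). Lists this short can hold 0 calls at the share of all tested genes. Of 42 tested acinar genes 34 had a negative and 8 a positive log2 fold change, with a median of -0.78. Amy2a2, Amy2a3 and Amy2a4, all negative, held identical values in every library, so they are not separate results. Of these 42, 4 were called higher and 1 lower, against 8.21% and 10.6% of all tested genes. The 1 called lower, Cela3a, met the filter through the ob/+ libraries alone. Of those called higher, Prss1, Gm10334 and 1810009J06Rik reached 1 FPKM in 5 libraries and met the filter only because the ob/ob libraries did. These calls add no support to the counts. In addition 2 of 5 tested duct genes, Krt7 and Spp1, rose, where 8.21% of all tested genes were called higher. The other 3 had negative fold changes and did not pass, and the median of the duct genes was -0.04. Of 6 tested immediate early genes, which respond to handling of cells, 1 rose, where 8.21% of all tested genes were called higher. The sum of the immediate early genes was 34.3 to 68.4 FPKM in ob/+ and 67.4 to 560 in ob/ob. The part of these differences in the vascular values was not tested.

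**Figure D5:**
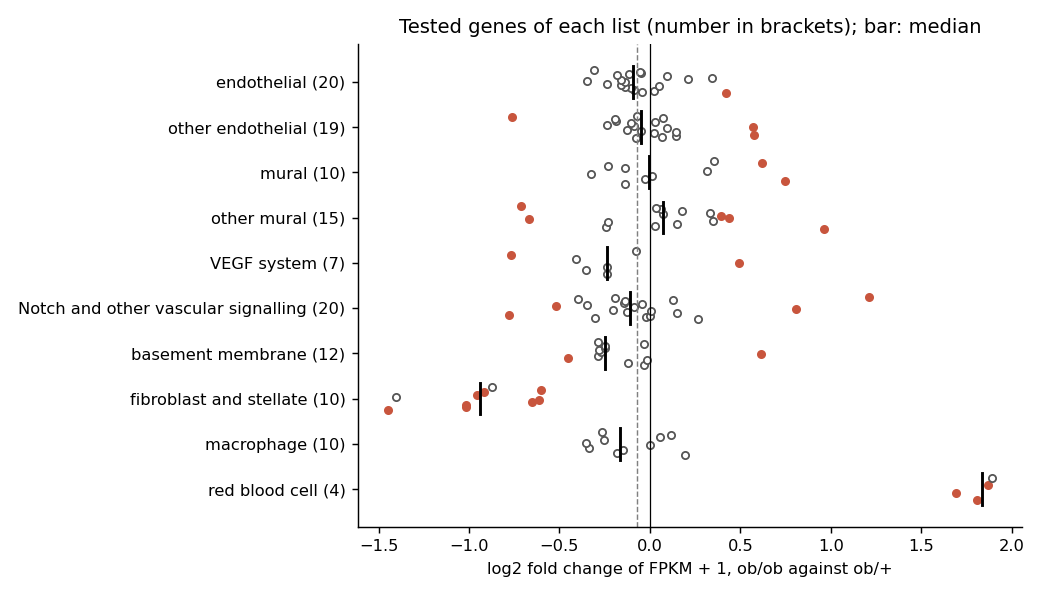
Log2 fold change of the tested genes of 10 lists, ob/ob against ob/+, with filled red points for genes past the adjusted threshold, a bar at each list's median and a dashed line at the median of all tested genes, -0.07. The endothelial and mural medians lie near that line, the fibroblast median at -0.94 and the red blood cell median at 1.84.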

How the data were processed

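RNA from 8 islet libraries was sequenced, 4 of each genotype. The deposited values are taken as FPKM per gene: the unit is not stated in the sources used here and was read from the values, which have 2 decimals and library sums that differ and reach 1004230 in 1 library. Trimmomatic 0.36, DESeq2 1.20.0, mm10 and GRCm38 are named, without a role, per the submitters' processing notes. Which aligner and quantifier were used, and with which strand setting, is not given in the sources used here. Of 20715 genes listed, 3314 had no value.

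limma 3.58.1 (R 4.3.3) was run on log2(FPKM + 1), two-sided, with trended and robust variance moderation and Benjamini-Hochberg adjustment over all 11747 tested genes, after a filter of 1 FPKM in at least 4 libraries. A count test could not be used on FPKM. The code was tested on simulated data. The members and lists were chosen with earlier results of these data known. The text names the members. Genes of the other lists were to be named from the up to 4 called ones with the smallest p in each, and not all of these are named. Vegfa, Myl9, Pdgfra, Lrat, Slc4a1, Csf1r, Cd14, Lyve1, Prox1, Amy2a2, Amy2a3 and Amy2a4 were named outside that rule, after their values were seen. Alternatives changed the scaling, pseudocount, filter, robust option, replicate block, acinar covariate and libraries used, 19 settings in all. Positions follow GENCODE on GRCm38.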

Additional observations from a re-analysis of the deposited data

Results flagged for a closer look

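Of 66 groups of 4 libraries examined, 33 genes in each genotype, 2 held a library far from the rest, and chance alone gives about 1 in 20 such groups. Flt1, the gene of VEGFR1, was at 7.35 FPKM in ob/+ 4, while the other ob/+ libraries lay between 13.28 and 13.75. Myh11, smooth muscle myosin, was at 4.94 FPKM in ob/ob 3, while the other ob/ob libraries lay between 2.94 and 3.18.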

How the results depend on the processing

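The number of members called higher, 3, became 5 with median centring, 5 with upper-quartile scaling and 6 once the 10 most abundant genes were dropped from the library sum, and lay between 2 and 3 when single libraries were left out. The number called lower, 0, became 1 with upper-quartile scaling, 17 once acinar genes were dropped from that sum, 3 with the acinar share as a covariate and 1 with the replicate block. It was 4 without both ob/+ 4 and ob/ob 1, a setting chosen after seeing the data, and lay between 0 and 5 without single libraries. Genes called among all tested, 2208, became 3429 with median centring, 3465 with upper-quartile scaling, 7556 with the acinar genes left out and 4000 without both libraries, and lay between 1434 and 4832 without single libraries. The replicate block gave 2674. Deviations of same-numbered libraries correlated at -0.22, 0.21, 0.17 and 0.12, so the numbers were not taken to pair the samples. The endothelial median became -0.333 and the mural median -0.175 with the acinar genes left out. Without single libraries they ran from -0.153 to -0.039 and from -0.047 to 0.251, the mural high being without ob/+ 1. The cause was not tested.

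Rgs5 kept its call in 19 of 19 settings, Acta2 in 18 and Angpt2 in 12. Angpt2 also lost it with no filter (0.42, limma adjusted p = 0.0535), the acinar genes left out (0.21, 0.179) and the acinar covariate (0.37, 0.11). Members with small fold changes turned sign. With the 10 most abundant genes left out, Cdh5 was at 0.063, Cspg4 at 0.035, Emcn at 0.031, Eng at 0.013, Tek at 0.043 and Tie1 at 0.053. With the acinar genes left out, Des was at -0.176, Egfl7 at -0.258, Esam at -0.234, Plvap at -0.093 and Ramp2 at -0.192. With the acinar covariate, Des was at -0.069, Egfl7 at -0.112, Esam at -0.016 and Ramp2 at -0.033. With median centring, Cdh5 was at 0.026, Cspg4 at 0.046, Tek at 0.024 and Tie1 at 0.017, and with upper-quartile scaling Cdh5 was at 0.002 and Cspg4 at 0.001. Tek was at 0.011 without both libraries. Without single libraries Cdh5 ran from -0.12 to 0.026, Tek from -0.127 to 0.034, Tie1 from -0.153 to 0.061, Esam from -0.007 to 0.08, Egfl7 from -0.066 to 0.098, Des from -0.039 to 0.117 and Cspg4 from -0.065 to 0.039. Cspg4 and Abcc9 met the filter in 4 of these 8 fits. Depth is unknown, so no counting error could be given.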
